A study of Mus musculus with 16 samples.

Results

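Colony-stimulating factors and their receptors were examined in mouse hippocampus as 7 genes. They comprise the ligand genes Csf1 and Il34 and the receptor genes Csf1r, Csf3r, Csf2ra, Csf2rb and Csf2rb2. They were chosen by name, by matching each Ensembl identifier of the deposited count table to these symbols, and all 7 were found among 49671 gene rows. After a filter on low counts 16372 genes were tested, and all 7 were among them. Libraries of total hippocampal RNA from female mice aged 8 months fell into 4 groups of 4. PS19_p16KO mice carried the PS19 transgene and a knockout of p16, PS19 mice carried the transgene with wildtype p16, p16KO mice lacked p16 without the transgene, and WT mice were wildtype for both. The PS19 transgene encodes a human tau protein with a disease mutation, and p16 is a cell-cycle inhibitor encoded by Cdkn2a. The labels do not give the cells in which p16 was deleted, nor whether each library is a different animal, and p-values then cover only the spread between libraries, which may be technical.

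Csf1 and Il34 are secreted ligands of the same receptor, the tyrosine kinase Csf1r, which brain macrophages need to survive and to divide. In the brain Csf1r belongs to microglia, Il34 is made mostly by neurons, and Csf1 comes from glia, microglia among them. Csf2ra and the common beta chain Csf2rb form the receptor for granulocyte-macrophage colony-stimulating factor, and Csf2rb2 is a beta chain known for interleukin-3 signalling. Csf3r is the receptor for granulocyte colony-stimulating factor, known best on neutrophils. These last receptors have no kinase of their own and signal through JAK kinases and STAT factors.

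Libraries held 18485552 to 22311322 gene counts. Cdkn2a had 2 counts in all over the PS19_p16KO libraries, 18 over PS19, 3 over p16KO and 8 over WT, a direction that goes with the labels at a very low depth. Prnp, whose mouse promoter drives the transgene, had at least 1536 CPM (a count scaled to a common total over gene rows) in every library labelled PS19 and at most 1080 CPM in every other library. Snap25, a synaptic gene, Prox1, a gene of dentate granule cells, and Wfs1, a gene of CA1 pyramidal cells, were present in every library, at 1815 CPM, 117 CPM and 112.6 CPM or more. Libraries PS19_p16KO 3, p16KO 4 and WT 1 held the most choroid plexus RNA of the 16. The summed level of 9 choroid plexus markers ran from 44.5 to 5959 CPM in PS19_p16KO, 43.8 to 73.9 in PS19, 59.2 to 3539 in p16KO and 53.7 to 917 in WT.

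The promoters of Csf1 and Csf3r are shown because both genes were higher in PS19 libraries and followed microglial genes from library to library. Each stretch, from RefSeq for GRCm38.p6, holds 250 bases before the gene's RefSeq start and 50 bases after it, read 5′ to 3′ on the gene's strand. Capitals mark matches, on either strand, to the core of PU.1 sites, GAGGAA, or to an NF-kB pattern that reads GGGA, any 4 bases, CC.
Csf1, chr3:107760420-107760719, minus strand: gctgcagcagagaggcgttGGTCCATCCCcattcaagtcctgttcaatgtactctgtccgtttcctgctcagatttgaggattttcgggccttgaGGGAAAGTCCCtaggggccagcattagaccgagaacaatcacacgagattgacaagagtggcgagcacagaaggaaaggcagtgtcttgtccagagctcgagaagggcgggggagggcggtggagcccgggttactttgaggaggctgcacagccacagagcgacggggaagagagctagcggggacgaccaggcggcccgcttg
Csf3r, chr4:126024409-126024708, plus strand: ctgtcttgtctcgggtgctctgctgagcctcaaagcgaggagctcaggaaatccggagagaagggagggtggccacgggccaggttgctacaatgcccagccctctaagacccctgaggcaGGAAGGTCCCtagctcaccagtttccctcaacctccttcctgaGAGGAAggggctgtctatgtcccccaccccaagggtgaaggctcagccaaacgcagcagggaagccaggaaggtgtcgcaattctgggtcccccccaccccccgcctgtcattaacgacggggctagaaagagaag
The Csf1 window held 3 NF-kB matches, of which 2 overlap each other on opposite strands, and 0 PU.1 cores. The Csf3r window held 1 NF-kB match and 1 PU.1 core, which starts 86 bases before the RefSeq start. GENCODE M21, the source of the gene coordinates below, places the start of Csf3r further upstream, so by that annotation the PU.1 core lies inside the gene. The windows of Csf2ra and Csf2rb2 held 2 PU.1 cores each and 0 NF-kB matches. The AP-1 pattern TGANTCA was found in 0 of these 4 windows. Over all 32851 promoter windows of the same length, 28.3% held a PU.1 core, 20.7% an NF-kB match and 7.8% an AP-1 match, so such letters are common and a match is only a description.

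The beta chain genes Csf2rb and Csf2rb2 lie close together on chromosome 15 and have near-identical coding sequences, which bears on how their counts can be read. The first 120 coding bases of each, joined across an intron and taken from GENCODE M21 transcripts on GRCm38, are shown with the differing bases in capitals.
Csf2rb, within chr15:78335207-78336379, plus strand: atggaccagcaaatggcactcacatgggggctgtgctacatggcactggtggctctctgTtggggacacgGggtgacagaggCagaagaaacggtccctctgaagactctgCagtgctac
Csf2rb2, within chr15:78297071-78298229, minus strand: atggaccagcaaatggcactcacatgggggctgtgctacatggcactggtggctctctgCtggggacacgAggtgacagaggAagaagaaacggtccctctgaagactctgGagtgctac
They differ at 4 of these 120 bases. Over the whole coding sequence 2503 of 2628 aligned bases were identical (95.2%), and the longest identical run was 242 bases. Of all stretches of 100 bases in the coding sequence of Csf2rb, 11% occur whole in Csf2rb2, and of all stretches of 50 bases 26.0% do. The sources used here state neither read length nor how reads with several matches were handled, so the split of counts between these genes is uncertain.

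Levels between genes were compared per length, as CPM per kilobase of annotated exons. In WT hippocampus Il34 (chromosome 8, 110741829 to 110805924) stood highest, at 22.8 ± 0.88 CPM per kb (SD, n = 4). Csf1r (chromosome 18, 61100598 to 61132149) followed with 14.7 ± 1.31 CPM per kb. Csf2ra (chromosome 19, 61223957 to 61228429) and Csf1 (chromosome 3, 107741048 to 107760469) had 6.27 ± 1.18 and 5.70 ± 0.11 CPM per kb, and the ranges of these neighbours overlapped. Csf3r (chromosome 4, 126024550 to 126044440) had 1.25 ± 0.12 CPM per kb. Csf2rb2 (chromosome 15, 78282507 to 78305721) and Csf2rb (chromosome 15, 78325752 to 78353847) were lowest at 0.227 ± 0.056 and 0.181 ± 0.075 CPM per kb, with overlapping ranges and 11 to 35 counts per WT library. In PS19 hippocampus the order changed at the top. There Csf1r averaged 26.9 ± 6.37 CPM per kb and Il34 20.5 ± 1.39 CPM per kb, although their ranges of 19.5 to 34.8 and 18.8 to 22.1 CPM per kb overlapped.

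The first comparison asked what the tau transgene does to these genes while p16 is intact. Csf1r, Csf1 and Csf3r rose in PS19 against WT hippocampus, by 1.82-fold, 1.41-fold and 2.15-fold, while Il34 did not pass the test and had a negative fold change. Thus 3 of the 7 genes passed edgeR's quasi-likelihood test at an adjusted p under 0.05, all higher, where 1.61% of all tested genes passed in either direction, 1.56% higher and 0.055% lower. At an unadjusted p under 0.05 there were 6 of the 7, against 9.57% of tested genes. In 4 of the 7, Csf1, Csf1r, Csf3r and Csf2rb2, every PS19 library was above every WT library, which held for 3.52% of tested genes, and 4.99% did not overlap in either direction.

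Csf1, the ligand that also occurs in glia, had 48.7, 46.6, 31.4 and 43.6 CPM in PS19 libraries 1 to 4, against 30.2, 29.5, 29.9 and 30.8 CPM in WT libraries 1 to 4. The WT libraries lay very close together, and PS19 library 3 was just above them while the other PS19 libraries were well clear. The fitted log2 fold change was 0.50 ± 0.10 (SE, adjusted p = 0.0115). This call was lost without PS19 library 1, PS19 library 2 or WT library 2 (adjusted p = 0.0688, 0.0579 and 0.0526), with the log2 fold change between 0.42 and 0.61 over all omissions of a library.

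Il34, the neuronal ligand, had 40.1, 36.7, 43.4 and 40.7 CPM in PS19 libraries, against 43.7, 47.1, 44.7 and 43.1 CPM in WT libraries. The groups overlapped by PS19 library 3 only, which had the highest Il34 level of its group and the lowest Csf1 level. The log2 fold change was -0.15 ± 0.07 (unadjusted p = 0.049, adjusted p = 0.519), and its 95% interval from the standard error runs from 0.812 to 0.993 of the WT level. The antisense genes Gm15895 and Gm15894 share 75 and 22 exon bases with Il34, and the sources used here do not say whether counting used strand.

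Csf1r, the receptor of both ligands, had 201, 162, 113 and 144 CPM in PS19 libraries, against 95.3, 82.5, 83.8 and 77.3 CPM in WT libraries. All PS19 libraries exceeded all WT libraries, library 1 by the widest margin and library 3 by the narrowest. The log2 fold change was 0.87 ± 0.14 (adjusted p = 0.00386), and the call was kept under each of the 16 omissions of a library (adjusted p at most 0.0213). Hmgxb3, which lies on the opposite strand and shares 873 exon bases with Csf1r, had log2 0.10 ± 0.05 in the same comparison (adjusted p = 0.549), at 48.6 to 54.4 CPM in PS19 and 46.0 to 48.5 CPM in WT.

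Csf3r had 14.4, 11.7, 5.54 and 7.45 CPM in PS19 libraries, against 4.09, 5.06, 4.71 and 4.24 CPM in WT libraries. The groups did not overlap, but PS19 libraries differed among themselves by more than the distance between library 3 and WT. The log2 fold change was 1.10 ± 0.22 (adjusted p = 0.00857), kept under each omission of a library (adjusted p at most 0.049). Neutrophil markers were at or near 0: Ly6g had 0 counts in every library, and Ngp, Camp, Elane and Mmp8 averaged at most 1 count per library. The summed level of 10 neutrophil markers, a sum near the floor, was 0.777 to 1.24 CPM in PS19, against 1.69 to 2.20 CPM in WT. S100a9, which passed the filter on low counts, was not called by edgeR (log2 -1.03 ± 0.40, adjusted p = 0.34). The part of neutrophils in the level of Csf3r was not tested.

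Csf2ra and Csf2rb, chains of the receptor for granulocyte-macrophage colony-stimulating factor, and Csf2rb2 passed no test over all genes. Csf2ra, the chain specific to that factor, had 21.4, 18.3, 20.1 and 18.3 CPM in PS19 libraries, against 15.9, 16.2, 23.1 and 16.8 CPM in WT libraries, and WT library 3 was the highest of all 16. Its log2 fold change was 0.12 ± 0.12 (adjusted p = 0.863), with a 95% interval of 0.924 to 1.272 of the WT level. Csf2rb, the common beta chain, had 5.11, 3.3, 1.29 and 2.79 CPM in PS19 libraries, against 1.83, 1.25, 1.59 and 0.583 CPM in WT libraries. PS19 library 3 lay within the WT range and the others lay above it, with log2 1.24 ± 0.37 (unadjusted p = 0.00364, adjusted p = 0.13). Without PS19 library 3 this gene passed in edgeR (log2 1.49, adjusted p = 0.0154), the only 1 of 16 omissions of a library that gave a call. Over all 16 omissions its log2 fold change ran from 0.89 to 1.49, with an adjusted p of up to 0.538. Csf2rb2, a second beta chain found in mice and known for interleukin-3 signalling, had 2.79, 1.75, 1.45 and 1.88 CPM in PS19 libraries, against 1.153, 1.03, 1.38 and 0.743 CPM in WT libraries. These groups did not overlap, yet with 14 to 52 counts per library its log2 0.86 ± 0.29 did not pass (adjusted p = 0.197).

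**Figure D1:**
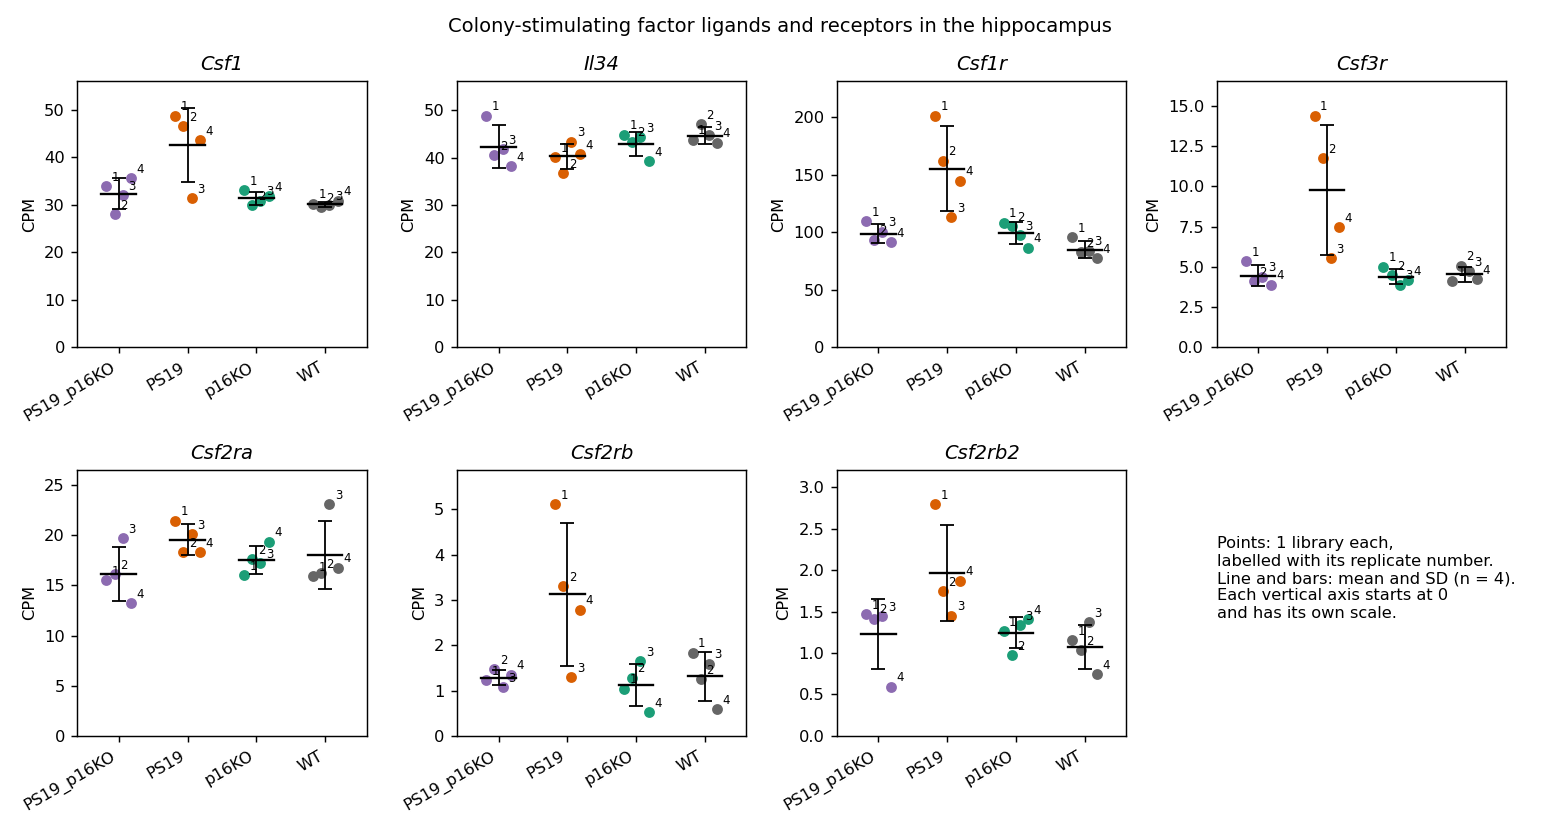
CPM of each of the 7 genes in every library, by group, with the mean and SD of 4 libraries; each vertical axis starts at 0 and has its own scale. PS19 libraries 1, 2 and 4 stand above the other groups for Csf1, Csf1r, Csf3r and Csf2rb, whereas PS19 library 3, at 113 CPM for Csf1r and 5.54 CPM for Csf3r, lies near them, and Il34 shows no such separation.

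The next comparison, PS19_p16KO against PS19, addressed loss of p16 where the transgene is present. Csf1r fell to 0.640 and Csf3r to 0.457 of the PS19 level, and Csf1 and the beta chains had lower values without passing over all genes. The count was 2 of 7 genes, both lower, where 0.825% of tested genes passed in either direction, 0.776% lower and 0.0489% higher. At an unadjusted p under 0.05 there were 6 of the 7, against 8.59% of tested genes. This comparison shares the PS19 libraries with PS19 against WT, so the opposite directions in both are not independent of each other. In Csf1r and Csf3r every PS19_p16KO library lay below every PS19 library, which held for 2.63% of tested genes, and 4.07% did not overlap in either direction.

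Csf1r had 109, 93.4, 100 and 91.2 CPM in PS19_p16KO libraries 1 to 4, against the 201, 162, 113 and 144 CPM of PS19. The highest PS19_p16KO library was just below PS19 library 3. The log2 fold change was -0.64 ± 0.13 (adjusted p = 0.0388). That call was lost in 13 of 16 omissions of a library, all except those of PS19 library 3, WT library 1 and p16KO library 4, with adjusted p between 0.0529 and 0.15 and log2 between -0.77 and -0.49 over all omissions. With PS19_p16KO 3, p16KO 4 and WT 1 left out the log2 fold change was -0.64 and the adjusted p 0.121.

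Csf3r had 5.36, 4.09, 4.4 and 3.89 CPM in PS19_p16KO libraries, against 14.4, 11.7, 5.54 and 7.45 CPM in PS19, and the nearest libraries of the groups almost met. Its log2 fold change was -1.13 ± 0.22 (adjusted p = 0.0171). This call was lost without PS19 library 1 (adjusted p = 0.0754), PS19 library 2 (0.0809), PS19_p16KO library 2 (0.0664) or PS19_p16KO library 4 (0.0639). With PS19_p16KO 3, p16KO 4 and WT 1 left out the value was -1.11 and the adjusted p 0.0823. Neutrophil markers summed to 0.524 to 1.66 CPM in PS19_p16KO and 0.777 to 1.24 CPM in PS19.

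Csf1 had 33.9, 27.9, 32.0 and 35.5 CPM in PS19_p16KO libraries, against 48.7, 46.6, 31.4 and 43.6 CPM in PS19. Only PS19 library 3 lay within the PS19_p16KO range. The log2 fold change was -0.39 ± 0.10 (unadjusted p = 0.00103, adjusted p = 0.0846). Csf1 passed in edgeR without PS19 library 3 (log2 -0.51, adjusted p = 0.000396) and in DESeq2 with all libraries (log2 -0.39, adjusted p = 0.0239). That omission was the only 1 of 16 that gave an edgeR call for Csf1. Over all 16 its log2 fold change ran from -0.51 to -0.31, with an adjusted p of up to 0.329. Il34 had 48.8, 40.5, 41.7 and 38.2 CPM in PS19_p16KO libraries, against 40.1, 36.7, 43.4 and 40.7 CPM in PS19. The groups overlapped, with PS19_p16KO library 1 above every PS19 library and PS19 library 2 below every PS19_p16KO library. Its log2 fold change was 0.08 ± 0.07 (adjusted p = 0.821), with a 95% interval of 0.957 to 1.17 of the PS19 level.

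Csf2rb had 1.23, 1.47, 1.07 and 1.35 CPM in PS19_p16KO libraries, with log2 -1.27 ± 0.38 against PS19 (adjusted p = 0.155). Again PS19 library 3 alone overlapped, and without it the gene passed in edgeR (log2 -1.53, adjusted p = 0.0184). This was the only 1 of 16 omissions that gave a call. Over all 16 the log2 fold change of Csf2rb ran from -1.53 to -0.92, with an adjusted p of up to 0.487. Csf2rb2 had 1.47, 1.42, 1.45 and 0.595 CPM in PS19_p16KO libraries (log2 -0.66 ± 0.28, adjusted p = 0.476), where library 4 stood apart from its group. Csf2ra had 15.5, 16.1, 19.7 and 13.2 CPM in PS19_p16KO libraries (log2 -0.27 ± 0.12, adjusted p = 0.499), and it overlapped PS19 by library 3.

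Without the transgene, loss of p16 gave 0 passing genes among the 7. In p16KO against WT edgeR called 0 of the 7, 0 of them had an unadjusted p under 0.05, and DESeq2 and limma-voom called 0 as well. Over all tested genes edgeR called 0, a share of 0%, and 653 genes (3.99%) had an unadjusted p under 0.05. Csf1r had 108, 105, 97.1 and 86.4 CPM in p16KO libraries, against 95.3, 82.5, 83.8 and 77.3 CPM in WT, so p16KO libraries 1, 2 and 3 exceeded every WT library. The log2 fold change was 0.22 ± 0.14 (unadjusted p = 0.123, adjusted p = 0.999), with a 95% interval of 0.97 to 1.40 of the WT level. Csf1 had 33.1, 29.8, 30.8 and 31.8 CPM and Il34 had 44.8, 43.4, 44.3 and 39.2 CPM in p16KO libraries, with 95% intervals of 0.906 to 1.19 and 0.866 to 1.06 of WT. Csf3r, at 5.0, 4.47, 3.90 and 4.18 CPM in p16KO, had an interval of 0.716 to 1.302. The groups overlapped in all 7 genes, where 2.99% of tested genes did not overlap in either direction.

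The transgene in the absence of p16 was read from PS19_p16KO against p16KO, whose libraries are all different from those of PS19 against WT. Again 0 of the 7 genes passed in edgeR, DESeq2 or limma-voom and 0 had an unadjusted p under 0.05 (3.65% of tested genes did), while 3 genes passed over the whole table (0.0183%). Csf1r had 109, 93.4, 100 and 91.2 CPM in PS19_p16KO libraries, against 108, 105, 97.1 and 86.4 CPM in p16KO, with log2 0.0004 ± 0.14 and a 95% interval of the fold of 0.832 to 1.20, an interval that does not reach the 1.82-fold difference of PS19 against WT. Csf3r had a 95% interval of 0.754 to 1.37 and Csf1 one of 0.904 to 1.19, and neither reaches the fold of that gene in PS19 against WT. Csf2rb and Csf2rb2, with few counts, had wider intervals of 0.669 to 1.98 and 0.671 to 1.48. Their folds in PS19 against WT, which were not called, were 2.36 and 1.82. The folds of PS19 against WT have 95% intervals of their own, 1.52 to 2.19 for Csf1r, and the difference is tested by the interaction below. All 7 genes overlapped between these groups, where 2.64% of tested genes did not.

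PS19_p16KO was also set against WT directly. Here edgeR, DESeq2 and limma-voom called 0 of the 7 genes, 0 had an unadjusted p under 0.05 (8.15% of tested genes did), 0.0366% of tested genes passed in edgeR, and all 7 genes overlapped where 3.91% of tested genes did not. The fitted log2 fold changes lay between -0.16 for Csf2ra and 0.22 for Csf1r, and that of Csf1r had a 95% interval of 0.971 to 1.40 of the WT level.

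Whether the transgene effect itself differed with p16 was tested by the interaction. In edgeR 0 of the 7 passed, where 0.00611% of tested genes did, but 4 had an unadjusted p under 0.05, against 5.44% of tested genes. They were Csf1r (log2 -0.87 ± 0.19, adjusted p = 0.15), Csf3r (log2 -1.08 ± 0.31, adjusted p = 0.267), Csf1 (log2 -0.44 ± 0.14, adjusted p = 0.397) and Csf2rb2 (log2 -0.87 ± 0.41, adjusted p = 0.905). DESeq2 called Csf1r (adjusted p = 0.000786) and limma-voom called 0. Without PS19 library 3 edgeR called Csf1r, Csf1 and Csf3r (adjusted p = 0.00166, 0.00623 and 0.0162). That fit called 160 genes in all, against 1 with all libraries. For each of these genes it was the only 1 of 16 omissions that gave a call. Over all 16 omissions the adjusted p reached 0.333, 0.780 and 0.610 in the same order. With the replicate number as a block edgeR called Csf1r as well (adjusted p = 0.0443). The call of Csf1r in the interaction thus differed between tools and settings.

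**Figure D2:**
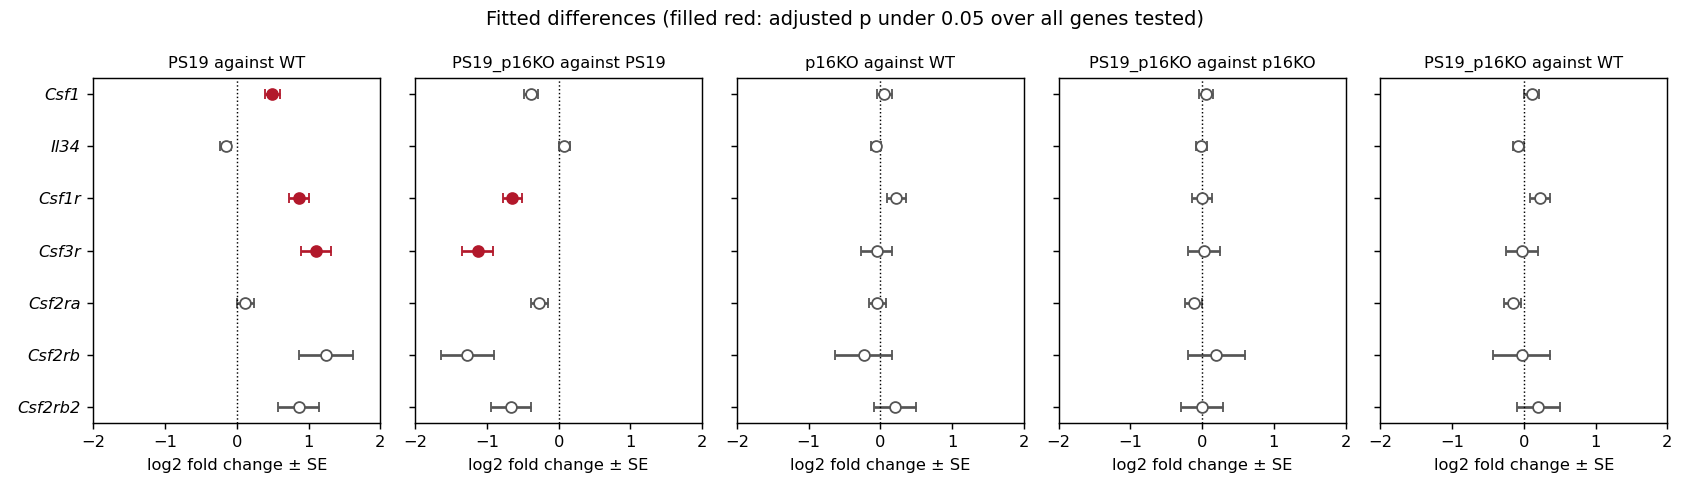
Fitted log2 fold change ± SE of the 7 genes in the 5 comparisons between groups; filled red points have an adjusted p under 0.05 over 16372 genes. Csf1, Csf1r and Csf3r lie right of 0 in PS19 against WT and left of it in PS19_p16KO against PS19, and all 7 genes lie near 0 or have wide errors in the other panels.

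Since Csf1r marks microglia, its level was set beside the sum of 14 microglial markers in each library. In bulk RNA fewer cells of a type and less RNA per cell cannot be told apart. The markers summed to 968, 763, 438 and 599 CPM in PS19 libraries 1 to 4, against 340, 329, 334 and 306 CPM in WT libraries 1 to 4. Their part in the levels of Csf1r, Csf1 and Csf3r was not tested beyond the ratios given next. Of the 14 markers edgeR called 11 higher in PS19 than in WT at an adjusted p under 0.05, where 1.56% of tested genes were called higher. The median log2 fold change of the 14 was 1.23, where the median of all tested genes was -0.01. In PS19_p16KO against PS19 edgeR called 7 of the 14 lower, where 0.776% of tested genes were called lower. The median of the 14 was -0.84, and their sum was 362 to 401 CPM in PS19_p16KO, against 438 to 968 CPM in PS19. The defining markers did not move as a block, since P2ry12 and Tmem119 had log2 -0.01 and 0.02 in PS19 against WT (adjusted p = 0.986 and 0.98), while C1qa, C1qb and Ly86 had 1.59, 1.59 and 1.67.

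Per 100 CPM of these markers there were 20.8, 21.2, 25.7 and 24.1 CPM of Csf1r in PS19 libraries, against 28.0, 25.1, 25.1 and 25.3 in WT libraries. PS19 libraries 1 and 2, which had the most marker RNA, had the least Csf1r per marker RNA, and the groups overlapped. The marker sum is the divisor of this ratio, so the sum and the ratio are not independent. The log2 ratio differed by -0.18 ± 0.08 (SE, exact two-sided permutation p = 0.114, adjusted p = 0.196 over 12 ratio tests). PS19_p16KO libraries had 27.3, 25.7, 25.3 and 25.2 and p16KO libraries 26.6, 27.4, 26.3 and 25.9 in the same unit. The difference of PS19_p16KO from PS19 was 0.18 ± 0.08 on the log2 scale (exact permutation p = 0.114, adjusted p = 0.196). With 4 against 4 libraries and 12 tests, full separation of the groups gave an adjusted p of 0.114 in the other ratios, so a miss here says little about Csf1r relative to the markers.

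The balance of ligand to receptor RNA was read per length. The summed level of Csf1 and Il34 per kb was 0.853, 0.982, 1.44 and 1.16 times that of Csf1r in PS19 libraries, against 1.7, 2.07, 1.96 and 2.08 times in WT libraries. PS19 libraries all lay below WT libraries, and libraries 1 and 2 had less ligand than receptor RNA per length. The log2 difference was -0.84 ± 0.18 (exact permutation test, two-sided, p = 0.0286, adjusted p = 0.114 over the 12 ratio tests), and 0.0286 is the lowest p this design allows. In PS19_p16KO the ratio was 1.65, 1.61, 1.57 and 1.66, above every PS19 library (log2 difference 0.58 ± 0.16, exact permutation p = 0.0286, adjusted p = 0.114). In p16KO libraries it was 1.56, 1.53, 1.69 and 1.74, which overlapped WT (log2 -0.26 ± 0.08, exact permutation p = 0.0571, adjusted p = 0.171). None of these differences passed after adjustment, but full separation of the groups itself gave 0.114 in this permutation test, so the miss says little.

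The mix of the ligands was read in the same way. Per length, Csf1 was 0.451, 0.47, 0.268 and 0.397 of Il34 in PS19 libraries, against 0.256, 0.233, 0.248 and 0.265 in WT libraries. All PS19 libraries were above WT, but library 3 only just, at 0.268 against 0.265 in WT library 4. The log2 difference was 0.63 ± 0.19 (exact permutation p = 0.0286, adjusted p = 0.114), and PS19_p16KO against PS19 gave -0.45 ± 0.21 (exact permutation p = 0.0857, adjusted p = 0.196). In all libraries Il34 stayed the more abundant of the ligands per length.

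**Figure D3:**
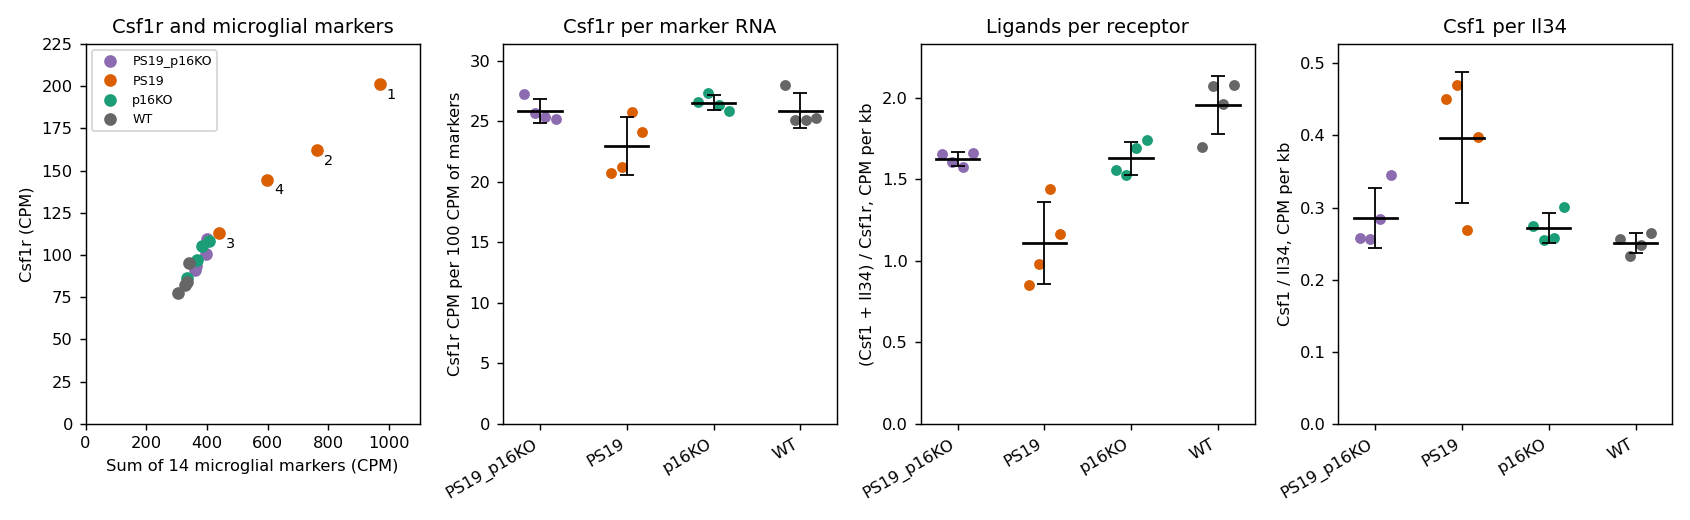
Left, Csf1r CPM against the summed CPM of 14 microglial markers per library, with PS19 replicate numbers; right, the 3 ratios per library with mean and SD of 4 libraries. Csf1r per marker RNA overlaps between PS19_p16KO and PS19 and between PS19 and WT, whereas the ratio of ligands to receptor is lowest in PS19, at 0.853 to 1.44, against 1.7 to 2.08 in WT.

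Levels of other cell types were measured in the same libraries. Astrocyte markers (8 genes) summed to 3440 to 4249 CPM in PS19_p16KO, 4510 to 5713 CPM in PS19, 3863 to 4533 CPM in p16KO and 4120 to 4363 CPM in WT. They were thus higher in every PS19 library than in every PS19_p16KO and every WT library, as Csf1 was in PS19 libraries 1, 2 and 4. However, p16KO library 3, at 4533 CPM, was above PS19 library 3, at 4510 CPM. Most of the astrocyte sum came from Slc1a2, with a mean of 2935 CPM (edgeR log2 0.20 ± 0.08 in PS19 against WT, adjusted p = 0.386). The part of astrocyte markers in the level of Csf1 was not tested. Oligodendrocyte markers (8 genes) summed to 3129 to 3948 CPM in PS19_p16KO, 3059 to 4239 CPM in PS19 and 2407 to 3527 CPM in WT. Neuronal markers (10 genes) summed to 10388 to 11632 CPM in PS19_p16KO, 10035 to 11368 CPM in PS19 and 10942 to 11640 CPM in WT. Border macrophage markers (9 genes) summed to 6.35 to 7.36 CPM in PS19 and 4.24 to 13.9 CPM in WT, markers of monocytes and dendritic cells (8 genes) to 8.33 to 9.37 and 10.4 to 11.4 CPM, and lymphocyte markers (9 genes) to 1.39 to 2.10 and 0.899 to 1.64 CPM. Most of the monocyte and dendritic sum came from Zbtb46, with a mean of 7.65 CPM (edgeR log2 -0.23 ± 0.11 in PS19 against WT, adjusted p = 0.529). Among these lists edgeR called 0 genes in PS19 against WT. In PS19_p16KO against PS19 it called 1 astrocyte marker, Slc1a2 (log2 -0.36 ± 0.08, adjusted p = 0.0458). In a list of 14 disease-associated microglial genes edgeR called 8 higher in PS19 against WT and 6 lower in PS19_p16KO against PS19. These are calls at an adjusted p under 0.05, where 1.56% and 0.776% of tested genes were called in those directions. The median log2 fold changes of the list were 0.99 and -0.91. Precursors of oligodendrocytes (6 genes), endothelial cells (8 genes), mural cells and fibroblasts (9 genes) and choroid plexus (9 genes) had 0 calls in either comparison, and their parts in the levels of Csf1 and Il34 were not tested.

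The genes most like each member over the 16 libraries were found by Pearson correlation of log2 CPM, among 13328 candidates. These values are a description, since libraries share their group and their microglial content. Those of Csf1r included C1qc (r = 0.978), C1qa (0.977), Laptm5 (0.967) and C1qb (0.966), and correlations of deviations from group means were 0.867 to 0.936 for these genes. Csf3r was most like Grn (0.972), C1qb (0.966) and B2m (0.964), and Csf1 was most like Axl (0.957), Ctsb (0.953) and Kcnk6 (0.953). Without the 4 PS19 libraries those of Csf3r were 0.646, 0.49 and 0.6 and those of Csf1 were 0.647, 0.797 and 0.78, so the PS19 libraries carry part of the likeness. Csf2rb was most like Apbb1ip, Lair1 and Mt2 (r = 0.881 to 0.89) and Csf2rb2 most like H2-T22, Tnfrsf1b and Hacd2 (0.849 to 0.885). Il34 was most like Stx12, Ankrd46 and Rab15 (0.773 to 0.779), and Csf2ra most like Rhoq, Hps1 and Zfp217 (0.781 to 0.832).

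Among the members, deviations from group means of Csf1r went with those of Csf3r (r = 0.843, n = 16 libraries), Csf2rb (0.765) and Csf1 (0.685). Those of Csf1r and Il34 gave 0.072, and those of Csf1r and Csf2ra -0.026. Csf2ra deviated most with Csf2rb2 (0.603), and both genes have few or moderate counts. PS19 library 3 was the lowest of its group in Csf1, Csf1r, Csf3r, Csf2rb and Csf2rb2 and the highest in Il34.

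Other genes of the Csf1r pathway were followed as a list of 30 adaptors, kinases, phosphatases, shedding enzymes and transcription factors, of which 29 were tested. In PS19 against WT edgeR called 8 higher and 0 lower at an adjusted p under 0.05, where 1.56% of tested genes were called higher. The median log2 fold change of the list was 0.34. Ptpn6, a phosphatase that dampens receptor signalling, had the smallest adjusted p (log2 1.53 ± 0.19, adjusted p = 0.000281). Tyrobp, an adaptor with an activating motif that acts with Csf1r, rose by log2 1.65 ± 0.23 (adjusted p = 0.00117). Irf8, a transcription factor of macrophages, rose by log2 1.47 ± 0.23 (adjusted p = 0.00221). Inpp5d, Lyn, Spi1 and Runx1 were also among the rises. The general signalling genes Mapk3, Grb2, Sos1, Pik3r1 and Akt1 had log2 values between -0.02 and 0.10 and did not pass. In PS19_p16KO against PS19 edgeR called 6 of the 29 lower and 0 higher, where 0.776% of tested genes were called lower. The list median was -0.19. Among the calls were Tyrobp (log2 -1.43 ± 0.23, adjusted p = 0.00748), Ptpn6 (log2 -1.02 ± 0.19, adjusted p = 0.0134) and Irf8 (log2 -1.22 ± 0.23, adjusted p = 0.0171). The summed microglial markers given above moved in the same libraries, and their part in these values was not tested.

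On the side of the cytokine receptors the list held 20 ligands, receptor chains, JAK kinases, STAT factors and their targets, of which 15 were tested. Stat3, the factor through which Csf3r and many other receptors signal, rose in PS19 against WT (log2 0.59 ± 0.07, adjusted p = 0.000113) and fell in PS19_p16KO against PS19 (log2 -0.33 ± 0.07, adjusted p = 0.0252). Socs3, a feedback inhibitor induced by Stat3, rose in the first comparison (log2 1.27 ± 0.31, adjusted p = 0.0425) and had log2 -1.04 ± 0.31 in the second (adjusted p = 0.155). Those were the only calls among the 15, 2 higher in the first comparison and 1 lower in the second. Of all tested genes 1.56% and 0.776% were called in those directions. The list medians were 0.14 and -0.09. Jak2, Stat5a and Stat5b, which serve the beta chains, had log2 0.09, 0.46 and 0.18 in PS19 against WT, and Cish, a target of Stat5, had -0.19 (adjusted p = 0.928). Il3ra, a partner of the beta chains, had log2 0.85 ± 0.33 (adjusted p = 0.345).

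The ligands of those receptors were barely detected. Csf2 and Csf3 had 1 count each over all 16 libraries and Il3 had 0 counts, which allows up to 0.00958 CPM for a gene with 0 counts, by a limit of 3 counts over the pooled libraries that covers counting error only. Il5 and Il5ra had 9 counts each. The receptor genes Csf2ra and Csf3r were thus measured at 13.2 CPM and 3.89 CPM or more in every library, whereas Csf2 and Csf3 had 1 count each in all.

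Il34 is reported to bind further receptors, among them Ptprz1, Sdc1 and Trem2. Trem2 rose in PS19 against WT (log2 1.56 ± 0.25, adjusted p = 0.00575) and fell in PS19_p16KO against PS19 (log2 -1.39 ± 0.25, adjusted p = 0.0227), and it also belongs to the microglial list. Ptprz1, a phosphatase receptor of glia, had log2 0.09 ± 0.08 and -0.22 ± 0.08 (adjusted p = 0.799 and 0.282), and Sdc1 had log2 -0.14 ± 0.47 and 0.83 ± 0.45 (adjusted p = 0.97 and 0.654). The receptor kinases most related to Csf1r and their ligands, 8 genes including Kit, Flt3, Pdgfra and Pdgfrb, had 0 calls in both comparisons. Of all tested genes 1.61% and 0.825% were called there in either direction. The medians of the 8 genes were -0.17 and 0.08. Kit had log2 -0.24 ± 0.09 in PS19 against WT (adjusted p = 0.36).

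**Figure D4:**
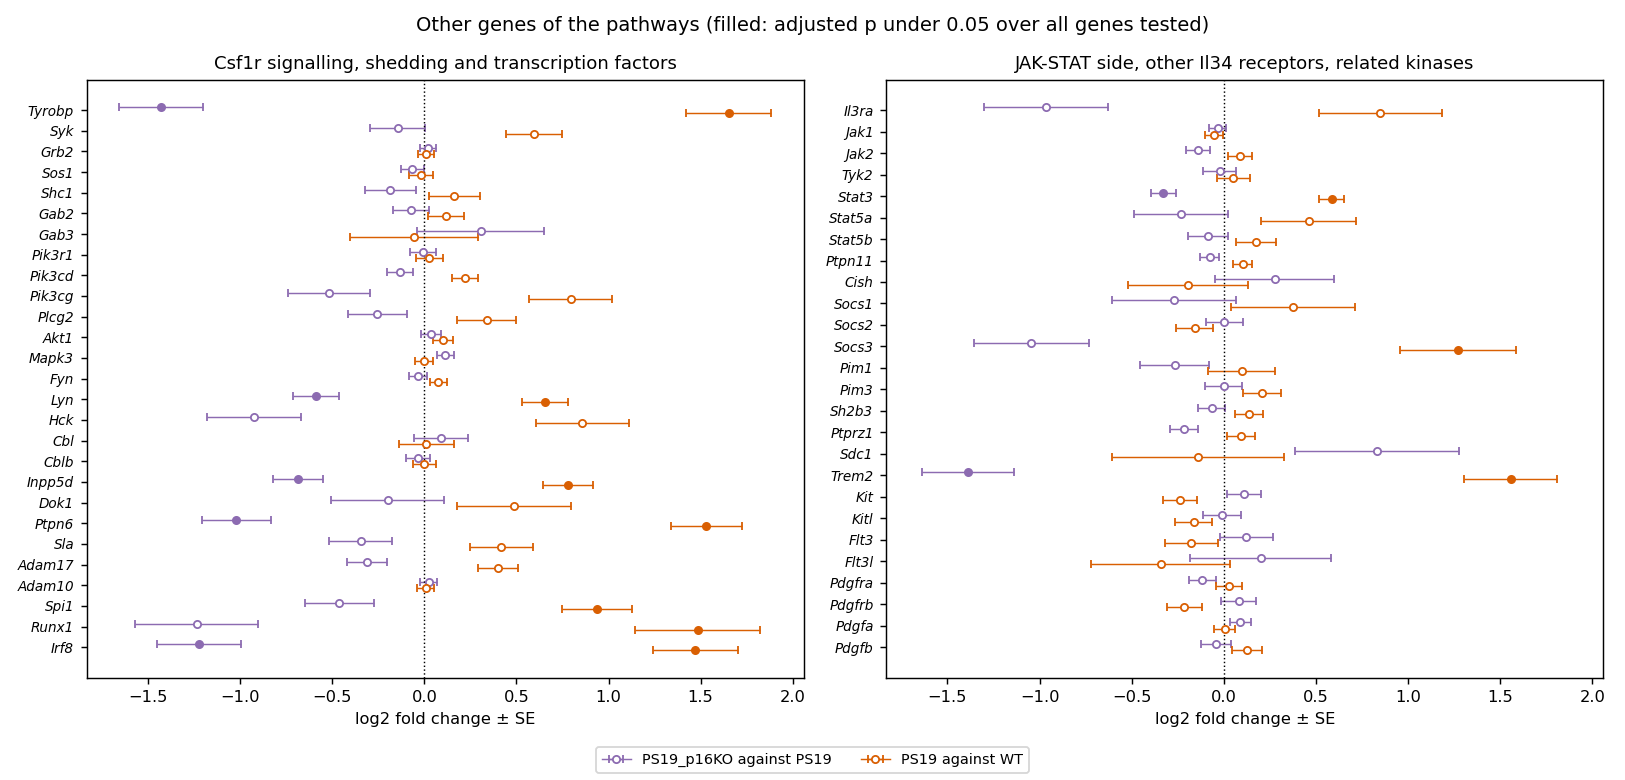
Log2 fold change ± SE of tested genes of the pathway lists in PS19_p16KO against PS19 (purple) and PS19 against WT (orange); filled points have an adjusted p under 0.05 over 16372 genes. Tyrobp, Ptpn6, Irf8, Lyn and Inpp5d are filled on both sides of 0, whereas Kit, Flt3, Pdgfra and Pdgfrb have unfilled points.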

How the data were processed

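The authors deposited raw counts per Ensembl gene and ERCC spike-in, 1 column per library. Per the submitters' processing notes, which give no role or order, the tools were STAR 2.5.2b, Subread 1.5.2 with featureCounts, Trimmomatic 0.36 and DESeq2, and the build was GRCm38. The sources used here state neither annotation release nor strand setting. The 92 ERCC rows, 0.574% to 1.06% of a library's counts, were left out. Symbols, coordinates and exon lengths came from GENCODE M21, and 49326 rows had a symbol.

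Levels are CPM over the gene rows. Differences were tested in edgeR 4.0.16 under R 4.3.3 (filterByExpr with a minimum count of 10, TMM, robust quasi-likelihood, all 16 libraries, one mean per group), with Benjamini-Hochberg adjustment over all genes tested and a threshold of 0.05. The standard error is the log2 fold change divided by the root of the F statistic, and a 95% interval is 1.96 standard errors either side. Ratios were tested by exact permutation over 70 assignments in scipy 1.17.1. The design's test for members below the filter was not needed. Replicate libraries differed by more than sampling noise (chi-square per degree of freedom 4.82 to 26.3).

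Alternatives were RLE or no scaling, DESeq2 1.42.0, limma-voom 3.58.1, other filters, the replicate number or the library-name suffix digit as a term, only the compared groups, no robust dispersion and leaving out libraries. The script was tested on simulated data. Named genes are all 7 members, up to 4 genes per list with the smallest adjusted p, and the genes most like each member by correlation (log2 CPM, prior count 2, mean above 0). A few genes that this rule or the lists include are not reported here by name, in the text or the figures, but stay in all counts. Other list genes named were chosen after their values were seen. The members and lists were chosen with earlier results of these data known.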

Additional observations from a re-analysis of the deposited data

Results flagged for a closer look

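In a group of 4 libraries a value was examined for a gap to its neighbour above 0.829 of the group's range, over 40 sets of 4 values, and such a gap arises by chance in about 5% of sets. Csf2ra in WT had 1 library far above the others, WT library 3 at 23.1 CPM. Csf2rb2 in PS19_p16KO had 1 library far below the others, library 4 at 0.595 CPM, from 11 counts. Csf1r per 100 CPM of microglial markers was far higher in WT library 1, at 28.0, than in the other WT libraries, and that library is also one of those rich in choroid plexus RNA.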

How the results depend on the processing

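The calls of Csf1r and Csf3r in PS19 against WT were kept under every omission of a library and every other setting except a fit on the compared groups only, where Csf1 (adjusted p = 0.079), Csf1r (0.0789) and Csf3r (0.11) missed the threshold in edgeR, leaving 0 members and 70 genes called. That fit has fewer libraries to estimate the spread. Fold changes of these genes kept their direction in both main comparisons. In PS19_p16KO against PS19 the members called were 3 with DESeq2, which added Csf1 (adjusted p = 0.0239), 1 with limma-voom, 1 with no filter, 1 with the library-name suffix digit as a term, 0 with only the compared groups and 0 without the 3 libraries highest in choroid plexus markers, and the cause was not tested. In the interaction 1 member, Csf1r, was called with DESeq2 and 1 with the replicate block (adjusted p = 0.0443).

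Numbers of genes called varied with the tool. With DESeq2 they were 278 in PS19_p16KO against PS19, 18 in p16KO against WT, 7 in PS19_p16KO against p16KO, 32 in PS19_p16KO against WT and 88 in the interaction. With limma-voom they were 10 in p16KO against WT, 10 in PS19_p16KO against WT and 0 in the interaction. With no filter they were 4, 15 and 20 in the same order. The interaction gave 6 with RLE scaling, 13 with the suffix digit and 2 with no robust dispersion. PS19_p16KO against PS19 gave 87 with the suffix digit, 8 with only the compared groups and 62 without the choroid plexus libraries. p16KO against WT gave 9 with only the compared groups and 7 without the choroid plexus libraries, and PS19_p16KO against WT gave 27 without them.

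Replicate numbers did not pair the libraries: correlations of deviations between same-numbered libraries ran from -0.388 to 0.223, and 0, 2, 0 and 2 of 8 libraries correlated best with their own number in the 4 comparisons. With the replicate block 238 genes were called in PS19 against WT, 134 in PS19_p16KO against PS19 and 5 in the interaction, and Csf2rb in PS19_p16KO against WT had log2 0.0248.

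Leaving out 1 library at a time, genes called ran from 124 to 438 in PS19 against WT (124, 131 and 438 with PS19 1, 2 or 3 left out, and 143 and 166 with WT 2 or 4 left out), from 29 to 347 in PS19_p16KO against PS19 (46, 29 and 347 with PS19 1, 2 or 3 left out, and 49, 36, 92 and 46 with PS19_p16KO 1, 2, 3 or 4 left out), from 4 to 16 in PS19_p16KO against WT (16 and 11 with WT 1 or PS19_p16KO 4 left out), 2 to 5 in PS19_p16KO against p16KO (5 with PS19_p16KO 2 left out), 1 to 160 in the interaction (160 with PS19 3 left out) and 0 to 8 in p16KO against WT (8 with PS19_p16KO 4 left out). Members called ran from 2 to 4, 0 to 4 and, in the interaction, 0 to 3.

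Changes of sign were all in uncalled values. Many of these were near 0, but Csf2rb in p16KO against WT, at -0.2313 with a standard error of 0.40 in the main fit, was not. Csf1r in PS19_p16KO against p16KO was -0.0038 with RLE, -0.0085 with plain library sizes, -0.0039 with DESeq2, -0.0045 with a filter on CPM, -0.0365 with the suffix digit and -0.0603 without the choroid plexus libraries. With the suffix digit Csf3r was 0.0507 in p16KO against WT and -0.0811 in PS19_p16KO against p16KO, and Csf1 there -0.0037. Csf2rb in PS19_p16KO against WT was 0.0665 with limma-voom and 0.244 without the choroid plexus libraries, which gave 0.1904 in p16KO against WT. Csf2rb2 in PS19_p16KO against p16KO was 0.0008 with no filter. The ligand to Csf1r ratio of PS19_p16KO against p16KO was 0.0115 without division by length. Over omissions of a library, log2 values in PS19_p16KO against p16KO ran from -0.0634 to 0.0422 for Csf1r, -0.0325 to 0.4396 for Csf2rb, -0.1074 to 0.2194 for Csf2rb2, -0.0857 to 0.0928 for Csf3r, -0.0928 to 0.0329 for Il34, -0.0329 to 0.0299 for ligands to Csf1r and -0.0306 to 0.1129 for Csf1 to Il34. In p16KO against WT they ran from -0.0971 to 0.0971 for Csf2ra, -0.4695 to 0.0013 for Csf2rb and -0.1199 to 0.0112 for Csf3r, and in PS19_p16KO against WT from -0.2668 to 0.1633 for Csf2rb and -0.1346 to 0.036 for Csf3r. Depth limits Csf2rb, with 10 to 95 counts per library, and Csf2rb2, with 11 to 52.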
